A study of Zea mays subsp. mexicana with 6 samples.

Results

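The NAC unigenes of teosinte (Zea mays ssp. mexicana), a wild relative of maize, were followed in seedlings exposed to cold or drought. They were the unigenes c47289_g2, c60421_g1, c52045_g1 and c57823_g1, which the study names as NAC transcription factors, 4 of the 184280 unigenes in the expression table. A unigene is an assembled gene of a de novo transcriptome, and FPKM is the number of fragments relative to the length of the unigene and to all fragments mapped in the library. All 4 averaged an FPKM above 1 over the libraries, c60421_g1 only through its cold libraries, and were among the 38768 unigenes tested. The study picked them on these same libraries: c47289_g2 and c60421_g1 as up-regulated in cold, c52045_g1 as up-regulated in drought among abscisic acid (ABA) responses, and c57823_g1 as down-regulated in both. Their values in the comparisons that named them are therefore a description and not independent evidence.

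Libraries came from seedlings of cultivar 8493 at 13 days, with 2 libraries for each of 3 conditions. Cold seedlings stood at 4°C for 12 h, drought seedlings were placed for 3 h in Hoagland solution holding 20% PEG2000, and control seedlings stayed at 25°C. PEG draws water out by osmosis, so the drought was an osmotic one, and it was also the shorter treatment. Each library pooled roots, stems and leaves of several seedlings, so fewer cells of a type and less RNA per cell cannot be told apart. Whether the replicates were grown apart is not stated, so p-values measure the spread between these libraries.

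NAC proteins are plant-specific transcription factors that bind DNA through a conserved N-terminal NAC domain and act on transcription through a variable C-terminal part. The family takes its name from NAM of petunia and ATAF and CUC2 of Arabidopsis. Members known from Arabidopsis and rice act in meristem and organ boundaries, lateral roots, xylem vessels, senescence and responses to dehydration, cold and ABA. By annotation c47289_g2 matched maize NAC domain-containing protein 67. Isoforms of c60421_g1 matched NAC domain-containing protein 21/22 of maize and NAC domain containing protein 74 of Arabidopsis. The unigene c57823_g1 was annotated as NAC domain-containing protein 21/22-like, and c52045_g1 is named only as a NAC domain transcription factor. In Arabidopsis the protein called NAC21/22 is NAC1, which acts in auxin signalling during lateral root growth.

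Differences were tested with limma on log2(FPKM + 1), fitted to all 6 libraries and adjusted after Benjamini and Hochberg over the 38768 tested unigenes. A unigene is said to rise or fall where the adjusted p was under 0.05, and is called a DEG where the absolute log2 fold change was also at least 2 and the adjusted p under 0.005. The log2 fold changes are on the log2(FPKM + 1) scale, on which the change of a low unigene comes out too small. Errors of fold changes are standard errors (SE), and those of FPKM are SD. With only 2 libraries a group, the smallest p of a two-sided exact permutation test is 0.333. Cold and drought were set against the same control libraries. The study called its own DEGs with DESeq2 and reported more of them in each treatment. The word DEG here refers to the limma call and not to the call of the study.

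The unigene c57823_g1 fell in both treatments, while none of the other 3 fell against the control in either. It had an FPKM of 15.47 and 16.02 in the cold libraries, 9.72 and 12.60 in the drought libraries, and 74.87 and 62.93 in the control libraries. All 4 stressed libraries lay far below both control libraries, and the drought libraries also lay below the cold libraries. Both cold libraries lay below both control libraries in 43.8% of all tested unigenes, both drought libraries below both control libraries in 24.6%, and both drought libraries below both cold libraries in 27.2%. The mean FPKM was 15.7 ± 0.389 in cold, 11.2 ± 2.04 in drought and 68.9 ± 8.44 in control (SD, n = 2 each), which left 0.228 of the control level in cold and 0.162 in drought. By limma the log2 fold change was -2.06 in cold (SE 0.16, adjusted p = 0.00108) and -2.53 in drought (SE 0.16, adjusted p = 0.00134), so it was a DEG in both.

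Far fewer unigenes fell that much in drought than in cold. Among all tested unigenes 3.28% were DEGs in cold and 1.11% were lower ones, against 0.784% and 0.0593% in drought. Only 9 unigenes, or 0.0232%, were lower DEGs in both comparisons. At an adjusted p under 0.05 alone, 22.4% fell in cold, 2.83% in drought and 1.23% in both. The drought and cold levels of c57823_g1 differed by -0.47 (SE 0.16, adjusted p = 0.0648), which did not pass the test. The cold call lies close to the fold threshold: with median-of-ratios scaling the cold log2 fold change was -1.84, and the median of all tested unigenes in cold was -0.18 without it. With any 1 of the 6 libraries left out, the log2 fold change was -2.18 to -1.93 in cold and -2.70 to -2.36 in drought. Neither call can be judged in such fits, which leave 1 library in a group.

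**Figure D1:**
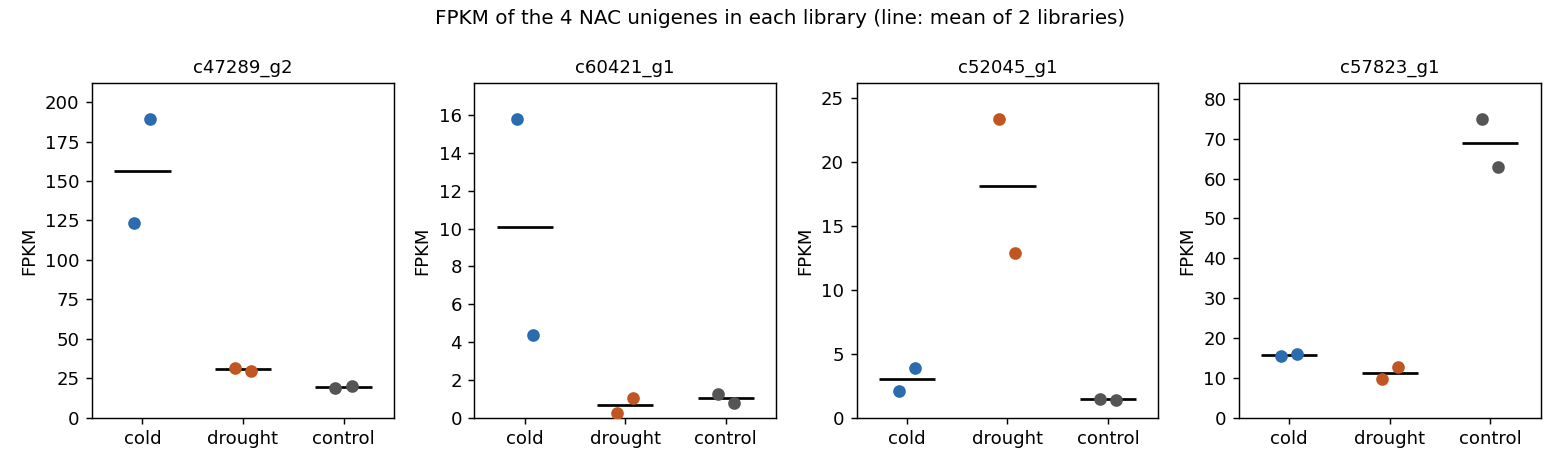
FPKM (linear axis from 0, a separate scale for each unigene) of c47289_g2, c60421_g1, c52045_g1 and c57823_g1 in the cold, drought and control libraries. Points are libraries and lines are means of 2 libraries. The control libraries of c57823_g1, at 74.87 and 62.93, stand above all stressed libraries, whereas the highest library of each other unigene is a stressed one.

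The unigene c47289_g2 had the highest level of the 4 in cold. Its FPKM was 123.68 and 189.18 in the cold libraries, 31.77 and 29.87 in the drought libraries, and 18.81 and 19.80 in the control libraries. The 3 groups did not overlap: cold lay highest, drought next and control lowest. The mean FPKM in cold was 156.4 ± 46.3 against 19.3 ± 0.70 in control (SD, n = 2 each), 8.10 times the control level, and the log2 fold change was 2.92 (SE 0.20, adjusted p = 0.000826). This made it one of the 2.16% of tested unigenes that were higher DEGs in cold, and 28.1% had both cold libraries above both control libraries. In drought the log2 fold change was 0.65 (SE 0.20, adjusted p = 0.127), which did not pass the test although both drought libraries exceeded both control libraries. That order of libraries was common, since 27.8% of tested unigenes had both drought libraries above both control libraries, and 12.6% had a larger log2 fold change in drought. Drought against cold gave -2.28 (SE 0.20, adjusted p = 0.00131), a lower DEG, as 1.81% of tested unigenes were. With any 1 of the 6 libraries left out, the log2 fold change was 2.62 to 3.23 in cold. Drought against cold ran from -2.58 to -1.97. Fits that leave 1 library in a group cannot judge the calls.

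The unigene c60421_g1 was the lowest of the 4 in drought and control, and its cold libraries disagreed. Its FPKM was 15.79 and 4.40 in the cold libraries, 0.27 and 1.06 in the drought libraries, and 1.27 and 0.76 in the control libraries. Both cold libraries lay above the rest, but cold replicate 1 was several times as high as cold replicate 2, and the drought and control libraries overlapped. It rose in cold by a log2 fold change of 2.25 (SE 0.57, adjusted p = 0.0275) and was not a DEG. At an adjusted p under 0.05, 14.8% of all tested unigenes rose in cold. The mean of c60421_g1 over all libraries exceeded 1 only through its cold libraries. Its entry to the test thus favoured a rise in cold and a fall from cold to drought. Without cold replicate 1 the log2 fold change was 1.43, and without cold replicate 2 it was 3.07. It was 2.44 without control replicate 1, 2.07 without control replicate 2 and unchanged without a drought library. Fits that leave 1 library in a group cannot judge the rise. In a separate fit of this comparison, which has fewer libraries, the rise did not pass the test (adjusted p = 0.0554). In drought the log2 fold change was -0.31 (SE 0.57, adjusted p = 0.820). Drought against cold gave -2.56 (SE 0.57, adjusted p = 0.0184), a fall shared by 14.2% of tested unigenes. It ran from -3.38 to -1.74 with a library left out, and such fits cannot judge whether it passes.

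The unigene c52045_g1 had the opposite preference. Its FPKM was 2.08 and 3.89 in the cold libraries, 23.33 and 12.90 in the drought libraries, and 1.49 and 1.35 in the control libraries. Both drought libraries exceeded all others, and the cold libraries lay slightly above the control libraries. The mean FPKM was 18.1 ± 7.38 in drought against 1.42 ± 0.099 in control (SD, n = 2 each), 12.8 times the control level. The log2 fold change of 2.93 in drought (SE 0.35, adjusted p = 0.00825) passed the test at 0.05, as 5.69% of all tested unigenes did in that direction, and missed the DEG threshold on p. Drought against cold gave 2.24 (SE 0.35, adjusted p = 0.00593), where 23.8% of tested unigenes rose and 43.9% had both drought libraries above both cold libraries. In cold, which did not enter the choice of this unigene, the log2 fold change was 0.68 (SE 0.35, adjusted p = 0.172) and did not pass the test. With any 1 library left out, the drought log2 fold change was 2.52 to 3.33. Fits that leave 1 library in a group cannot judge whether it passes. Without a filter on low FPKM, and so over more unigenes, it did not pass (adjusted p = 0.0831).

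**Figure D2:**
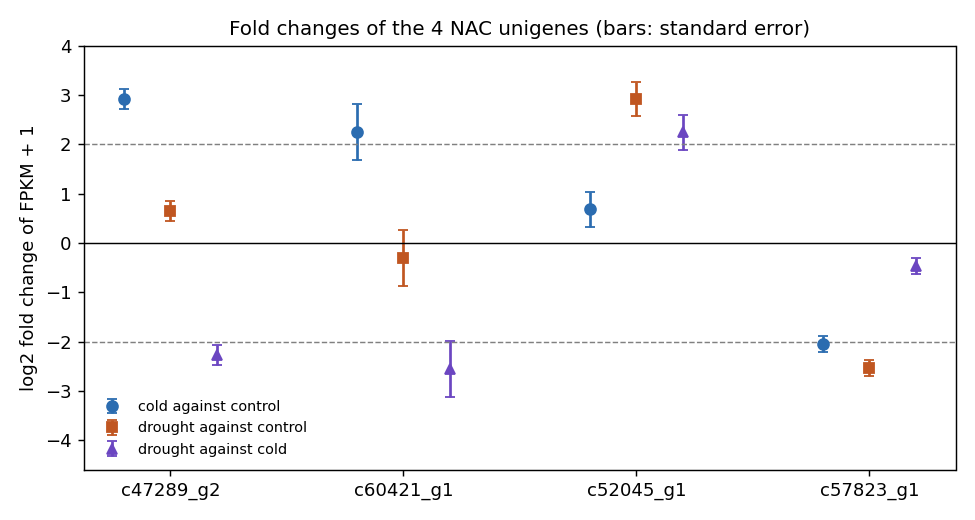
Log2 fold changes of FPKM + 1 (vertical axis) of the 4 NAC unigenes in cold against control (circles), drought against control (squares) and drought against cold (triangles), with standard errors from limma. Dashed lines mark the fold threshold of 2 in either direction. Only c57823_g1 lies below 0 in both treatments past the threshold, at -2.06 and -2.53.

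Set against the other 3 within each library, c57823_g1 changed place. Its FPKM was 0.125 and 0.0847 times that of c47289_g2 in the cold libraries, 0.306 and 0.422 times in the drought libraries, and 3.98 and 3.18 times in the control libraries. It thus stood above c47289_g2 in both control libraries and below it in all stressed ones. Against c52045_g1 the ratio was 7.44 and 4.12 in cold, 0.417 and 0.977 in drought, and 50.2 and 46.6 in control. Here the order was turned only in the drought libraries, where c52045_g1 stood higher. Against c60421_g1 it was 0.98 and 3.64 in cold, 36 and 11.9 in drought, and 59.0 and 82.8 in control, so c57823_g1 was the higher one in 5 of the 6 libraries. Added together, the FPKM of all 4 was 157.02 and 213.49 in cold, 65.09 and 56.43 in drought, and 96.44 and 84.84 in control. The choice of the members set the direction of these ratios, so they are a description, and an exact two-sided permutation test of each between 2 groups gave p = 0.333, the smallest it can give.

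Unigenes that share the first number of the identifier come from the same assembly component, where near-identical copies, alleles or paralogs may be listed apart and divide their reads. A further 4 unigenes shared a component with c47289_g2 or c60421_g1, and 2 of these passed the filter on low FPKM. None shared one with c52045_g1 or c57823_g1. The partner c47289_g1 had an FPKM of 7.27 and 7.97 in the cold libraries, 21.55 and 20.31 in the drought libraries, and 2.51 and 2.33 in the control libraries. It was highest in drought, where c47289_g2 was not. By limma it rose in drought by a log2 fold change of 2.68 (SE 0.14, adjusted p = 0.000793), a DEG as were 0.725% of tested unigenes in that direction, and in cold by 1.33 (SE 0.14, adjusted p = 0.00237). Drought against cold gave 1.35 (adjusted p = 0.00211), opposite in sign to the -2.28 of c47289_g2. With any 1 library left out, the drought log2 fold change of c47289_g1 was 2.64 to 2.72. Fits that leave 1 library in a group cannot judge its call.

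The share of c47289_g1 in the summed FPKM of its component was 5.55% and 4.04% in the cold libraries, 40.4% and 40.5% in the drought libraries, and 11.8% and 10.5% in the control libraries. The 3 groups did not overlap, and the drought libraries lay nearly at 1 value. An exact permutation test of these shares cannot go below p = 0.333. With both unigenes summed, the component had log2 fold changes of 2.83 in cold (adjusted p = 0.000817) and 1.21 in drought (adjusted p = 0.0199). The rise of the sum in drought passed the test, which that of c47289_g2 alone did not. Drought against cold was then -1.62 (adjusted p = 0.00297), short of the fold threshold. The sum was added as an alternative after the values were seen.

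The partner c60421_g3 was much higher than c60421_g1 and changed less. Its FPKM was 109.21 and 93.35 in the cold libraries, 71.60 and 56.49 in the drought libraries, and 46.16 and 39.67 in the control libraries. The groups were ordered as in c47289_g2, with no overlap. It rose in cold by 1.22 on the log2 scale (SE 0.16, adjusted p = 0.00401), short of the fold threshold, and its log2 fold change in drought was 0.56 (adjusted p = 0.102). The unigene c60421_g1 made up 12.4% and 4.47% of its component in cold, 0.366% and 1.82% in drought, and 2.62% and 1.84% in control. The component sum rose by 1.30 in cold (adjusted p = 0.00476), so the larger fold change of c60421_g1 was not that of its component. The remaining pair, c60421_g2 and c60421_g4, lay under the filter, at no more than 1.50 in any library.

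**Figure D3:**
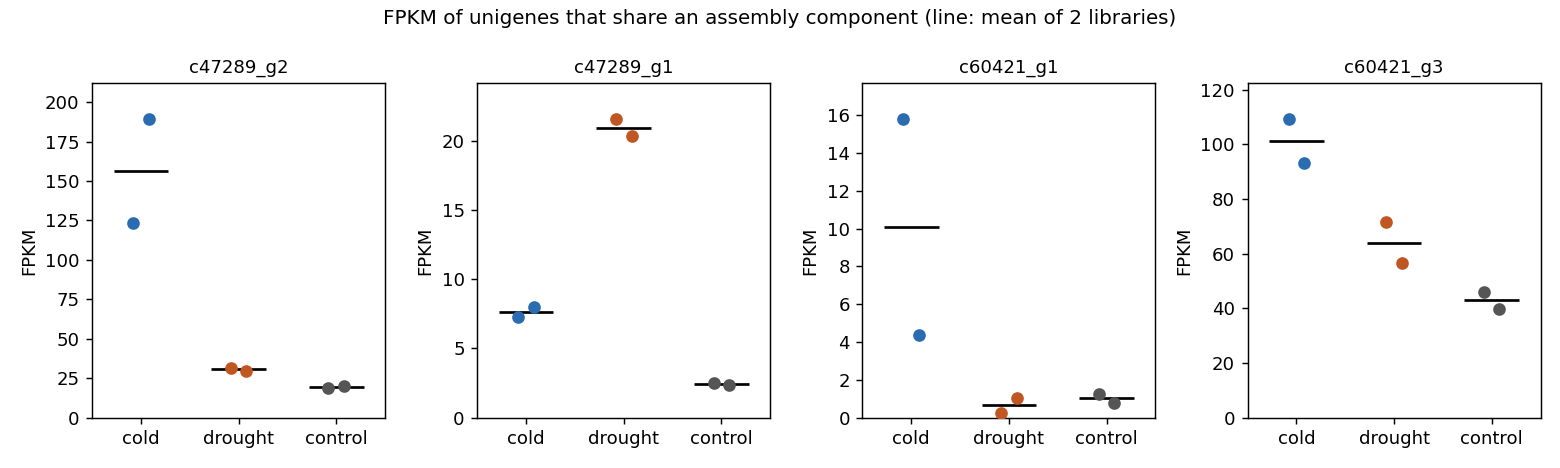
FPKM (linear axis from 0, a separate scale for each unigene) of the component partners c47289_g2 and c47289_g1, and c60421_g1 and c60421_g3, in the cold, drought and control libraries. Points are libraries and lines are means of 2 libraries. In c47289_g2 the cold libraries are highest (123.68 and 189.18), and in c47289_g1 the drought libraries are (21.55 and 20.31).

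The annotation sheets used here are parts of longer ones and name 26 unigenes as NAC, the 4 included. They came from a sheet of unigenes that the study had picked as up-regulated in cold (15 unigenes besides the named ones) and from sheets that were not picked on expression (8 unigenes, of which 1 is also on the cold sheet). Of the 22 further unigenes, 19 passed the filter. The sum over all 26 was 1758.03 and 1729.86 in the cold libraries, 547.04 and 512.88 in the drought libraries, and 501.28 and 490.79 in the control libraries. Its rise in cold is partly set by the cold sheet.

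In the sheets not picked on expression, c50519_g3 moved as c57823_g1 did. It matched an Arabidopsis protein with a no apical meristem domain, the domain by which NAC proteins are recognised. Its FPKM was 10.41 and 11.35 in the cold libraries, 3.79 and 7.09 in the drought libraries, and 47.68 and 59.33 in the control libraries. The stressed libraries all lay well below both control libraries, with drought lowest, the same order as in c57823_g1. By limma the log2 fold change was -2.19 in cold (SE 0.27, adjusted p = 0.00319) and -3.12 in drought (SE 0.27, adjusted p = 0.00311), a DEG in both. Both c50519_g3 and c57823_g1 were thus among the 9 unigenes that were lower DEGs in both comparisons. No share of NAC unigenes is drawn from this. The sheets are partial, and c57823_g1 was named by the study because it was lower in both. With any 1 library left out, the log2 fold change was -2.345 to -2.036 in cold and -3.5 to -2.744 in drought. As with c57823_g1, such fits cannot judge the calls. Median-of-ratios scaling put the cold value at -1.97. Drought against cold gave -0.93 (adjusted p = 0.0389), and ran from -1.31 to -0.55 with any 1 library left out.

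The component partner of c50519_g3 behaved otherwise. The unigene c50519_g2 had an FPKM of 17.91 and 18.21 in cold, 8.61 and 9.29 in drought, and 14.67 and 13.39 in control. It fell in drought by 0.59 on the log2 scale (adjusted p = 0.0435), while its cold log2 fold change was 0.34 (adjusted p = 0.0782). With any 1 library left out, the drought log2 fold change was -0.66 to -0.53. In a separate fit of drought against control, which has fewer libraries, the fall did not pass the test (adjusted p = 0.0966). The other unigenes of these sheets that passed the filter were mixed. NAC domain containing protein 82 (c62307_g2), in Arabidopsis a mediator of the response to disturbed ribosome production, stayed between 119.18 and 145.75 in all libraries, with log2 fold changes of -0.06 in cold (adjusted p = 0.688) and 0.08 in drought (adjusted p = 0.749). Vascular related NAC-domain protein 7 (c53539_g2), which drives xylem vessel formation in Arabidopsis, had 4.98 and 10.85 in cold, 2.98 and 2.62 in drought, and 8.83 and 7.19 in control. Its drought log2 fold change of -1.24 did not pass the test (adjusted p = 0.0883). NAC domain containing protein 36 (c60556_g2) is on the cold sheet too and was a DEG in cold at 2.24 (adjusted p = 0.00429), with 0.80 in drought (adjusted p = 0.192). With a library left out its cold value was 1.92 to 2.57. In cold, 1 of these 5 was a higher and 1 a lower DEG, and in drought 1 was a lower DEG and a further 1 fell. Over all tested unigenes 2.16% were higher and 1.11% lower DEGs in cold. In drought 0.0593% were lower DEGs and 2.83% fell, and 5 members are too few to give a rate beside these shares.

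The 15 NAC unigenes of the cold sheet show what such a unigene did in drought, which did not enter their choice except through the shared control libraries. In cold all 15 rose and 10 were DEGs, by the study's selection, with a median log2 fold change of 2.53 (1.43 to 4.51) beside -0.18 over all tested unigenes. In drought none was a DEG by limma, 4 rose at the adjusted p, none fell and the remaining 11 did not pass the test. Over all tested unigenes 0.725% were higher DEGs in drought and 5.69% rose. Their median log2 fold change in drought was 0.71, beside 0.007 over all tested unigenes. In 12 of the 15 both drought libraries lay above both control libraries, in 2 the groups overlapped and in 1 (c62348_g3, chosen after its values were seen) drought lay lower. Over all tested unigenes 27.8% had both drought libraries above both control libraries. The 15 may not all be separate genes, since the assembly components c53222, c61582 and c62348 each gave a pair of them. The drought values of these 15 ran from -0.24 to 1.52, so the 0.65 of c47289_g2 lay within their range and the -0.31 of c60421_g1 just below it. Their drought against cold values are again set by the selection on the cold libraries, and as a description had a median of -1.99 beside 0.19 over all tested unigenes.

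The highest of the 15 by the mean over all libraries were c60236_g1 and c59964_g3, both annotated as NAC domain-containing protein 48, which in rice is a stress-responsive NAC. The FPKM of c60236_g1 was 418.38 and 358.21 in cold, 81.88 and 64.92 in drought, and 45.15 and 40.97 in control. It rose in drought as well, by 0.75 on the log2 scale (adjusted p = 0.0386), and did not pass the test with any 1 library left out (adjusted p of 0.0743 to 0.187). In c59964_g3 the FPKM was 279.28 and 274.06 in cold, 77.87 and 56.70 in drought, and 42.02 and 47.02 in control, with 0.57 in drought (adjusted p = 0.105). Next by the mean over all 6 libraries, though not by the mean in cold, was c62348_g2, annotated as NAC23, with 174.51 and 90.34 in cold, 21.58 and 18.91 in drought, and 20.55 and 21.37 in control. Its drought libraries overlapped the control libraries.

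The largest drought changes on the sheet were in c40089_g1 and c53222_g4, both annotated as NAC domain-containing protein 21/22, and in c40260_g1, a putative NAC domain protein. In c40089_g1 the FPKM was 21.96 and 19.41 in cold, 15.35 and 17.80 in drought, and 5.77 and 4.51 in control. It rose in drought by 1.52 (SE 0.17, adjusted p = 0.00655), and the value was 1.37 to 1.67 with any 1 library left out. Without a filter on low FPKM, and so over more unigenes, the rise did not pass the test (adjusted p = 0.0652). Its drought and cold levels did not differ past the test (adjusted p = 0.199). In c53222_g4 the FPKM was 28.41 and 25.78 in cold, 11.41 and 12.39 in drought, and 4.90 and 2.80 in control, a rise of 1.45 in drought (adjusted p = 0.0186). With any 1 library left out, the drought value of c53222_g4 was 1.13 to 1.76. In a separate fit of this comparison, which has fewer libraries, the rise did not pass the test (adjusted p = 0.0764). In c40260_g1 the value was 1.22 (adjusted p = 0.0536). The annotation 21/22 was thus carried by 5 unigenes of these partial sheets, with different patterns. Of these, c57823_g1 fell in cold, and the other 4, c60421_g1 included, rose in cold, all 4 having been picked by the study as up-regulated. The unigene c53222_g5 shares an assembly component with c53222_g4 and was also chosen after its values were seen. It was close to c60421_g1, with 13.54 and 4.91 in cold, 0.98 and 1.09 in drought, and 1.41 and 0.74 in control.

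**Figure D4:**
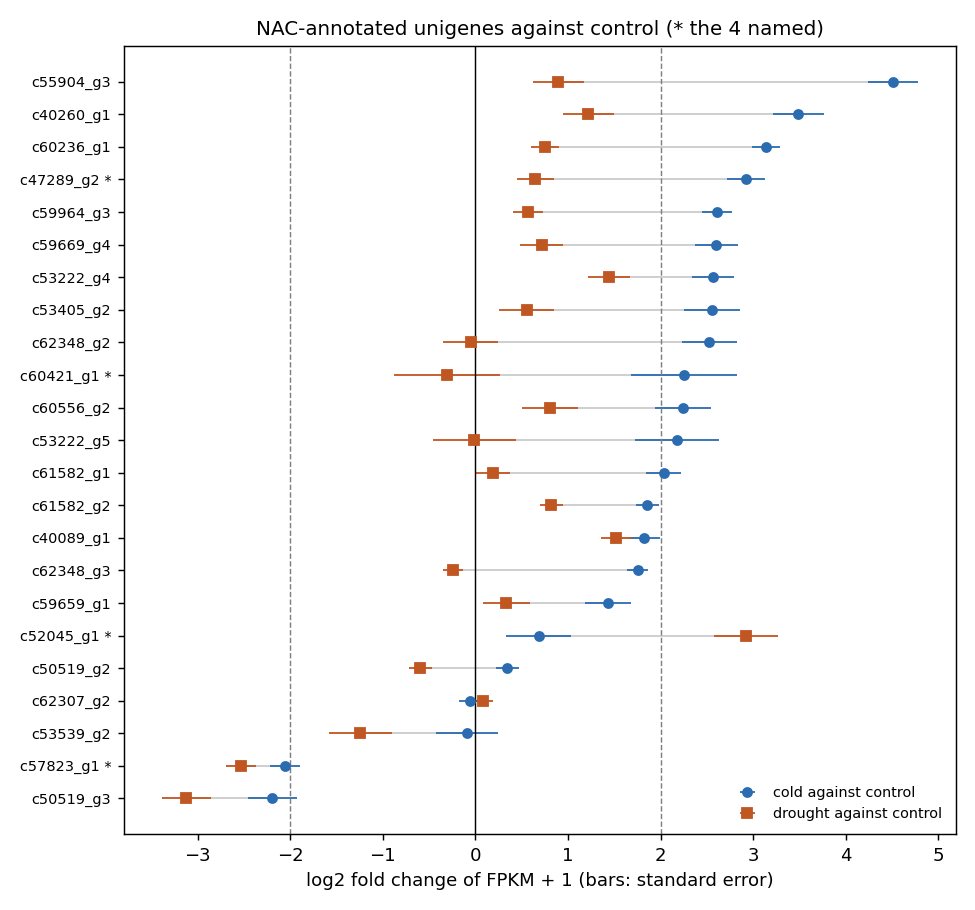
Log2 fold changes of FPKM + 1 (horizontal axis) with standard errors for the 23 tested NAC-annotated unigenes, in cold against control (circles) and drought against control (squares), ordered by the cold value. Dashed lines mark the fold threshold of 2. Only c57823_g1 and c50519_g3 lie below -2 in both, and only c52045_g1 lies above 2 in drought. Most unigenes in the upper part were picked by the study as up-regulated in cold.

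By level, c57823_g1 was the second of the 26 NAC-annotated unigenes in both control libraries, after c62307_g2. It stood at places 17 and 16 in the cold libraries, and at 14 and 11 in the drought libraries. Its share of the summed NAC FPKM was 0.880% and 0.926% in cold, 1.78% and 2.46% in drought, and 14.9% and 12.8% in control. The share in cold is lowered by the rise of the unigenes on the cold sheet, but the drought share was low against nearly the same sum as in control. The share of c47289_g2 was 7.04% and 10.9% in cold, 5.81% and 5.82% in drought, and 3.75% and 4.03% in control. It stood at places 6 and 3 in cold, 5 and 4 in drought, and 9 and 8 in control.

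Set beside c52045_g1 were 8 ABA-related unigenes that the study names as up-regulated in drought. They are 3 EID1-like F-box unigenes, 3 type 2C protein phosphatases, which hold back ABA signalling, a stachyose synthase, which makes a raffinose family sugar, and NCED1, which catalyses the limiting step of ABA synthesis. The study also discusses other type 2C phosphatases and a SnRK1 kinase under ABA, which are not in this list. All 8 rose in drought and 6 were DEGs, with a median log2 fold change of 3.21 (2.00 to 5.03), and the 2.93 of c52045_g1 lay within that range. The 3 F-box unigenes share an assembly component and passed the filter on low FPKM only through their drought libraries, so the filter partly set their rise. Over all tested unigenes 5.69% rose in drought and 0.725% were higher DEGs. The study named all 8 as up-regulated in drought, so this is not independent evidence, and it also named NCED1 and the phosphatase 2C50 (c57868_g1) as up-regulated in cold. In cold 4 of the 8 rose, 1 fell and 3 did not pass the test, beside 14.8% of all tested unigenes that rose and 22.4% that fell. Among these 8, NCED1 (c63716_g5) was the only DEG in cold, at 3.66 (adjusted p = 0.000365), and phosphatase 2C (c60116_g4) fell by 1.36 on the log2 scale (adjusted p = 0.00455). The F-box unigene c57232_g2 had the largest rise in drought, with an FPKM of 0.11 and 0.47 in cold, 39.94 and 36.11 in drought, and 0.08 and 0.32 in control. Like c52045_g1, it did not pass the test in cold, where its log2 fold change was 0.10 (adjusted p = 0.778).

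Unigenes with the most similar pattern were ranked by Pearson's r of log2(FPKM + 1) over the 6 libraries, which is a description over 3 pairs of replicates. For c57823_g1 these were c58288_g1, c54387_g1 and c58999_g2, with r of 0.997, 0.996 and 0.996. Of these c54387_g1 came nearest in size, with an FPKM of 11.13 and 12.02 in cold, 6.80 and 7.86 in drought, and 43.05 and 35.09 in control. For c47289_g2 they were c61596_g5, c55598_g2 and c35797_g1 (r from 0.999 to 0.999), for c60421_g1 c50482_g1, c35002_g1 and c57896_g7 (r from 0.998 to 0.999) and for c52045_g1 c52229_g1, c44945_g1 and c54370_g2 (r from 0.995 to 0.999). At least 0.99 was reached by 82 unigenes for c47289_g2, 15 for c60421_g1, 19 for c52045_g1 and 9 for c57823_g1. These are counts out of 38767 other tested unigenes. The 3 nearest to c60421_g1 all repeated its high cold replicate 1 and lower cold replicate 2, which a ranking over these same libraries favours.

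Markers of leaf and root were read in every library. The 10 leaf markers, unigenes of photosynthesis, had a summed FPKM of 13494 and 16021 in cold, 8766 and 8932 in drought, and 14238 and 13776 in control. Of the 9 tested, all had a negative log2 fold change in drought, beside 18936 of all 38768 tested unigenes. In drought 6 fell, beside 2.83% of all, and the median was -0.84, beside 0.007 over all. In cold none passed the test, where 14.8% of all tested unigenes rose and 22.4% fell. The leaf marker c115287_g1, which lay under the filter, was listed at 0 in 5 of the 6 libraries. The 7 root markers summed to 182 and 225 in cold, 135 and 151 in drought, and 189 and 154 in control, most of it from the phosphate transporter c37245_g1. None of the 5 tested passed the test in either treatment, and c39734_g1 and c43295_g2 were at 0 in several libraries. In drought c57823_g1 and c50519_g3 fell and c52045_g1 rose, while the leaf markers were lower. Whether the balance of tissues had a part in these changes was not tested. In cold, where c57823_g1 also fell, 6 of the 9 leaf markers tested had a negative log2 fold change, beside 22799 of all 38768. A part of the balance of tissues in that fall was not tested either.

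Replicates correlated with Pearson's r of 0.950 in cold, 0.951 in drought and 0.956 in control on the log2 scale, across genes, which are not independent replicates. The libraries had 42849 to 55928 unigenes at an FPKM of at least 1. The table gives no read numbers per unigene, so no counting interval is given.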

How the data were processed

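The authors merged the reads of all samples, assembled them with Trinity, mapped read pairs back with Bowtie 1.1.1, estimated abundance with RSEM and deposited FPKM values of 184280 unigenes in 6 libraries, with 2 decimals, scaled to mapped fragments and length only. Columns were matched to samples by condition and replicate number. FPKM is not a count, so log2(FPKM + 1) was fitted in limma 3.58.1 (R 4.3.3), 1 fit of 6 libraries with a mean-variance trend (3 residual and 2.86 prior degrees of freedom), over the 38768 unigenes whose mean FPKM reached 1. The fit was tested on simulated data. Figures used Python 3.11.15 and matplotlib 3.10.9.

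The members and lists were chosen with earlier results of these data known. Besides the 4 members, unigenes named are their component partners, NAC-annotated unigenes of the sheets not picked on expression, the 3 highest and the 3 most changed in drought on the cold sheet, 8 ABA-related unigenes and the 3 nearest patterns per member; exceptions are marked. Annotations come from partial sheets of the study. Alternatives covered the pseudocount, filters, scaling, separate fits, a replicate block, the variance trend, both thresholds, each library left out and component sums. The deposited table holds no read numbers per unigene, so no counting error is given. Sequences and genome positions of the unigenes were not used here.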

Additional observations from a re-analysis of the deposited data

How the results depend on the processing

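Of the 612 log2 fold changes recomputed under 17 alternatives (the 4 NAC unigenes, c47289_g1, c60421_g3, c50519_g2, c50519_g3, c60236_g1, c40089_g1, c53222_g4 and c60556_g2 in 3 comparisons), 499 kept their direction and side of the DEG threshold, 102 kept the direction but lost the call, 9 gained it and 2 changed direction. Both changes of direction were in c60421_g1 in drought against control, which was not called: 0.0435 without drought replicate 1 and 0.54 as a component sum; with a library left out its values ran from -0.65 to 0.0435. Of the 4 NAC unigenes, 2 were DEGs in cold, 1 in drought and 1 in drought against cold. Without a filter on low FPKM, and with a separate fit of each comparison, these numbers were 0, 0 and 0. Leaving out any 1 library gave a range of 0 to 0 in each comparison. In those settings no unigene of the whole table was a DEG in cold or in drought against control, and past the fold threshold at an unadjusted p under 0.05 there were 1902 to 2323 in cold and 710 to 1032 in drought with a library left out, 1892 and 710 without a filter, and 1902 and 710 with separate fits. In drought against cold the whole table had 43 higher and 3 lower DEGs without a filter, 337 and 205 with separate fits, 349 and 202 or 349 and 205 without a control library, and 0 without a cold or drought library, where 2231 to 2406 passed at the unadjusted p. Keeping unigenes that reached an FPKM of 1 in at least 2 libraries gave 0 in drought and 0 in drought against cold. Median-of-ratios scaling and quantile normalization each left 1 in cold, where c57823_g1 missed the fold threshold. A fit without the variance trend gave 0 in drought. The replicate block gave 0 in drought and changed no other count of the 4. The replicate numbers did not pair the libraries, since deviations from the group means correlated at -0.03, -0.01 and 0.04 between groups, and the block moved the DEGs in cold to 521 higher and 291 lower, beside 838 and 432. An adjusted p under 0.05 with the fold threshold kept gave 3 in cold, 2 in drought and 3 in drought against cold, and component sums gave 0 in drought against cold. The causes were not tested. Of all DEGs in cold 66.0% were higher, 78.2% under median-of-ratios scaling and 54.3% with a pseudocount of 0.1. In drought against cold these shares were 50.9%, 36% and 60.8%. The 2 libraries per group limit every value.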
